A study of Mus musculus with 8 samples.

Results

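Transcript levels of 9 genes that store, repress or polyadenylate maternal mRNA were compared between mouse oocytes labelled Dicer knockout and wild-type mouse oocytes. They were Cpeb1, Cpeb3, Cpeb4, Ybx2, Dazl, Pum2, Zfp36l2, Pabpc1l and Eif4enif1, taken by name. Every probe set with a single platform symbol among them was used, which gave 20 of 45037 probe sets. Cpeb3 and Pum2 had 4 probe sets each, Cpeb4 and Zfp36l2 had 3, Dazl had 2, and Cpeb1, Ybx2, Pabpc1l and Eif4enif1 had 1.

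The arrays carry RNA of fully grown oocytes with an intact germinal vesicle, the nucleus of an oocyte still arrested before its meiotic divisions. They came from 4 females with the genotype label Dicer knockout and 4 wild-type females, all of the 129/C57BL6 strain and all primed with equine chorionic gonadotropin, a hormone that makes follicles grow. Each array holds 20 oocytes of 1 mouse, cleared of cumulus cells by pipetting. The labels give neither the age of the mice, nor the deleted exons, nor the promoter that drove the deletion.

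A growing mouse oocyte makes its mRNA in advance and keeps much of it untranslated with short poly(A) tails. CPEB proteins bind a uridine-rich element in the 3′ end of such mRNAs and repress them or, when meiosis resumes, direct their polyadenylation and translation. Y-box protein YBX2 (MSY2) coats the stored mRNA, the eIF4E transporter 4E-T (Eif4enif1) holds the cap-binding factor, DAZL and PUM2 bind elements in 3′ ends, ZFP36L2 brings deadenylases to AU-rich mRNAs, and PABPC1L binds the poly(A) tail. The comparison asks whether these regulators are themselves altered at the RNA level in oocytes labelled knockout for Dicer, the enzyme that cuts microRNAs and short interfering RNAs.

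YBX2 also has a link to promoters. In mouse male germ cells, mRNAs transcribed from promoters with a Y box, whose core reads ATTGG on the coding strand, have been reported as those it marks for storage. This core and its reverse complement, CCAAT, were therefore looked for in the 250 bases before each annotated start in RefSeq (GRCm38.p6). Of the 9 genes, 8 had a promoter entry and 5 of these held the core in at least 1 window, in 5 of 16 windows (31.2%), against 33.8% of 32851 windows of all genes. Over all genes 37.5% of 27025 held it in at least 1 window. The shares by gene are not alike, because the 8 genes had 16 windows and the 27025 genes had 32851. A gene with more windows has more places for a match, and some windows of Eif4enif1 and of Pum2 overlap. A match is a description of letters and shows no binding. The windows of Cpeb4, Ybx2, Dazl and Pabpc1l that held the core are shown 5′ to 3′ with the core in capitals.
Cpeb4 (chr11:31870690-31870939, plus strand): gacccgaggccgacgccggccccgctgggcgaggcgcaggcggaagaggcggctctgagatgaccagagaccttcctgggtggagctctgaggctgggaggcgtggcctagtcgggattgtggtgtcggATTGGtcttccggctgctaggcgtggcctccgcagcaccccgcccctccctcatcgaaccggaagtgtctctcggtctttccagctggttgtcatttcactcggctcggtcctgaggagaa
Ybx2 (chr11:69935649-69935898, plus strand): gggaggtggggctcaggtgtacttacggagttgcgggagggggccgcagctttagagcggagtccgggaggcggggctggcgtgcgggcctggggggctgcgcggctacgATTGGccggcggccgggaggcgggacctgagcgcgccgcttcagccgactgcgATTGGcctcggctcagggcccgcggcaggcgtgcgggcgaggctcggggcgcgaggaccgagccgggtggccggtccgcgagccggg
Dazl (chr17:50293621-50293870, minus strand): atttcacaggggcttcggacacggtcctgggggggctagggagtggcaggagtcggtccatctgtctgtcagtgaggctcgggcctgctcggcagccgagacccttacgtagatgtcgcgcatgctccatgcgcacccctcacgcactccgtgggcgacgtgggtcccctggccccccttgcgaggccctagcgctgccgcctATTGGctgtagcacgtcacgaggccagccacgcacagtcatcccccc
Pabpc1l (chr2:164024974-164025223, plus strand): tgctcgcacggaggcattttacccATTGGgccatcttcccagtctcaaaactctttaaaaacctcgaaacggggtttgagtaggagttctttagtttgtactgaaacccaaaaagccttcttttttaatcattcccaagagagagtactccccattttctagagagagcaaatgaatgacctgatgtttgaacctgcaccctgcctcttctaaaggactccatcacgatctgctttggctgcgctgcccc
The core began 121 bases before the start in Cpeb4, 140 and 87 bases before it in Ybx2, 47 in Dazl and 226 in Pabpc1l. Ybx2 held it in 1 of 2 windows, and Eif4enif1 held the reverse complement in 1 of 4. Those of Cpeb1, Cpeb3 and Pum2 did not hold these letters. Zfp36l2 is named only.

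Array medians lay between 6.35 and 6.43 on the log2 scale, and correlations across probe sets were 0.9915 to 0.9947 within and 0.9797 to 0.9865 between the groups, with probe sets not being independent replicates. Wild-type array 1 stood apart: of 494 genes at least 2-fold higher in the knockout in a fit without it, it exceeded the other 3 wild-type arrays in 374 (75.7%). The same share for wild-type arrays 2, 3 and 4, each in a fit without it, was 14.4%, 14.5% and 10.2%. Calls among the 9 genes, and list counts that moved, are therefore also given without it. Dicer1, the targeted gene, read 14.35, 14.32, 14.26 and 14.36 on knockout arrays, against 13.31, 13.07, 13.10 and 13.04 on wild-type arrays in the brighter probe set, and was 1.61-fold higher in the other. With the deleted exons unstated, neither probe set checks the genotype, so the arrays are those labelled knockout throughout. The 3′ minus 5′ signal of actin was 2.14 ± 0.145 in knockout and 2.32 ± 0.274 in wild type, and that of Gapdh 2.82 ± 0.153 in knockout and 2.96 ± 0.0817 in wild type (SD, n = 4 each, exact two-sided permutation p = 0.257 and 0.143, with 0.0286 the smallest that 4 against 4 arrays allow). These values describe RNA integrity and amplification, and their part in the differences below was not tested.

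Cpeb4 fell in all 3 of its probe sets, to 35.2%, 57.2% and 75.7% of the wild-type signal. Cpeb1 fell slightly, Cpeb3 fell in 1 of 4 probe sets, and Pum2 moved in opposite directions in a pair of its probe sets. Ybx2, Dazl, Zfp36l2, Pabpc1l and Eif4enif1 did not pass the test. In total 7 of the 20 probe sets passed at adjusted p below 0.05 in limma, 6 lower and 1 higher. Over all probe sets 16.1% passed, 9.31% lower and 6.82% higher. By the brightest probe set of each gene, Cpeb1 and Cpeb4 were lower, Pum2 was higher and 6 of the 9 genes did not pass, where 12.8% of 18193 genes were lower and 8.18% higher. The median log2 difference, knockout minus wild type, was -0.19 over the 20 probe sets and 0.02 over all. The groups did not overlap in 8 of the 20, against 21.2% of all probe sets. In pooled oocytes, less transcript in every oocyte and fewer oocytes that hold it cannot be told apart.

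**Figure D1:**
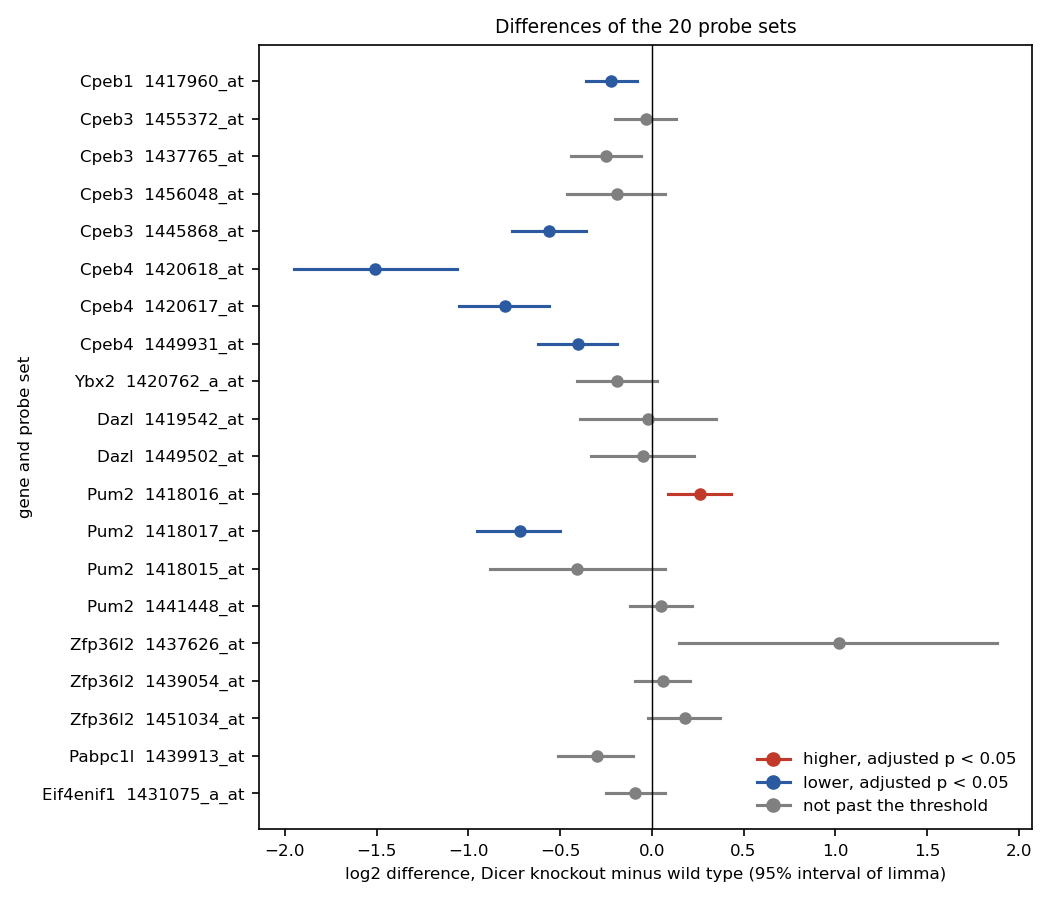
Log2 difference, Dicer knockout minus wild type, of each of the 20 probe sets (points) with its 95% interval from limma (lines), coloured by the call at adjusted p below 0.05. The 3 Cpeb4 probe sets lie at -1.51, -0.80 and -0.40, and the Pum2 probe sets lie on both sides of 0.

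Cpeb4, on chromosome 11, encodes a CPEB protein that in frog oocytes acts in the later phase of meiotic maturation. In its brightest probe set (1420618_at) the log2 signal was 8.92, 8.33, 9.25 and 9.01 in the knockout and 10.70, 10.52, 10.09 and 10.22 in wild type. The highest knockout array lay 0.84 below the lowest wild-type array. The log2 difference was -1.51 ± 0.2 (SE, n = 4 each, adjusted p = 0.000921), and without wild-type array 1 it was -1.40 (adjusted p = 0.00267).

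The second Cpeb4 probe set (1420617_at) read 8.95, 8.67, 8.96 and 9.05 in the knockout and 9.77, 9.88, 9.50 and 9.70 in wild type, a difference of -0.80 ± 0.108 (SE, adjusted p = 0.000988), and -0.79 without wild-type array 1 (adjusted p = 0.00339). The groups were again separate, with a gap of 0.45. In the dimmest (1449931_at), with 7.10, 6.98, 6.88 and 6.76 in the knockout and 7.18, 7.28, 7.45 and 7.41 in wild type, the gap was 0.08. That difference was -0.40 ± 0.0957 (SE, adjusted p = 0.0188), and -0.45 without wild-type array 1 (adjusted p = 0.0166). Its call ended without wild-type array 4 (adjusted p = 0.0541), knockout array 3 (0.0521) or knockout array 4 (0.0511), while the other Cpeb4 calls held under 15 alternatives with other scaling, filtering, variance models, weights, a random block or 1 array left out. Per the platform annotation the 3 probe sets were designed on the same transcript record, and they differed in the size of the fall. On each array the signal of 1420618_at minus that of 1420617_at was -0.02, -0.34, 0.29 and -0.04 in the knockout and 0.93, 0.65, 0.59 and 0.52 in wild type, so these probe sets recorded unequal changes.

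Cpeb1, on chromosome 7, is the founding CPEB, needed in mice for germ cells to pass through meiotic prophase and for oocyte growth. Its single probe set read 12.71, 12.65, 12.70 and 12.75 in the knockout and 12.88, 12.92, 12.95 and 12.94 in wild type. The groups were separate by 0.13, with little spread inside either. The difference was -0.22 ± 0.0622 (SE, n = 4 each, adjusted p = 0.0412), or 86.0% of the wild-type signal. Leaving out any single array ended this call (adjusted p = 0.0582 to 0.1, and 0.0582 without wild-type array 1), as did quantile scaling (0.0638).

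Cpeb3, on chromosome 19, belongs with Cpeb4 to the branch of the family whose RNA-binding domains differ from that of CPEB1. Its brightest probe set (1455372_at) read 12.10, 12.01, 12.00 and 12.11 in the knockout and 12.08, 12.22, 12.02 and 12.04 in wild type, with a difference of -0.03 and a 95% interval from -0.20 to 0.13. The groups overlapped there. The dimmest (1445868_at) read 8.08, 7.93, 8.02 and 8.12 in the knockout and 8.43, 8.62, 8.57 and 8.79 in wild type. It fell by 0.56 on the log2 scale (SE 0.0892, adjusted p = 0.00241), with every knockout array below every wild-type array, and by 0.62 without wild-type array 1 (adjusted p = 0.00198). Between these, 1437765_at and 1456048_at differed by -0.25 (adjusted p = 0.0751) and -0.19 (adjusted p = 0.332). The knockout thus held less signal in 1 of the 4 Cpeb3 probe sets by the test, and the brightest of them showed a difference within the spread of the arrays. Cpeb2, the fourth gene of the family, was dim, with means of 3.58 to 4.92 in the knockout and 3.44 to 4.84 in wild type over 3 probe sets, and did not pass (adjusted p = 0.405 to 0.638).

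**Figure D2:**
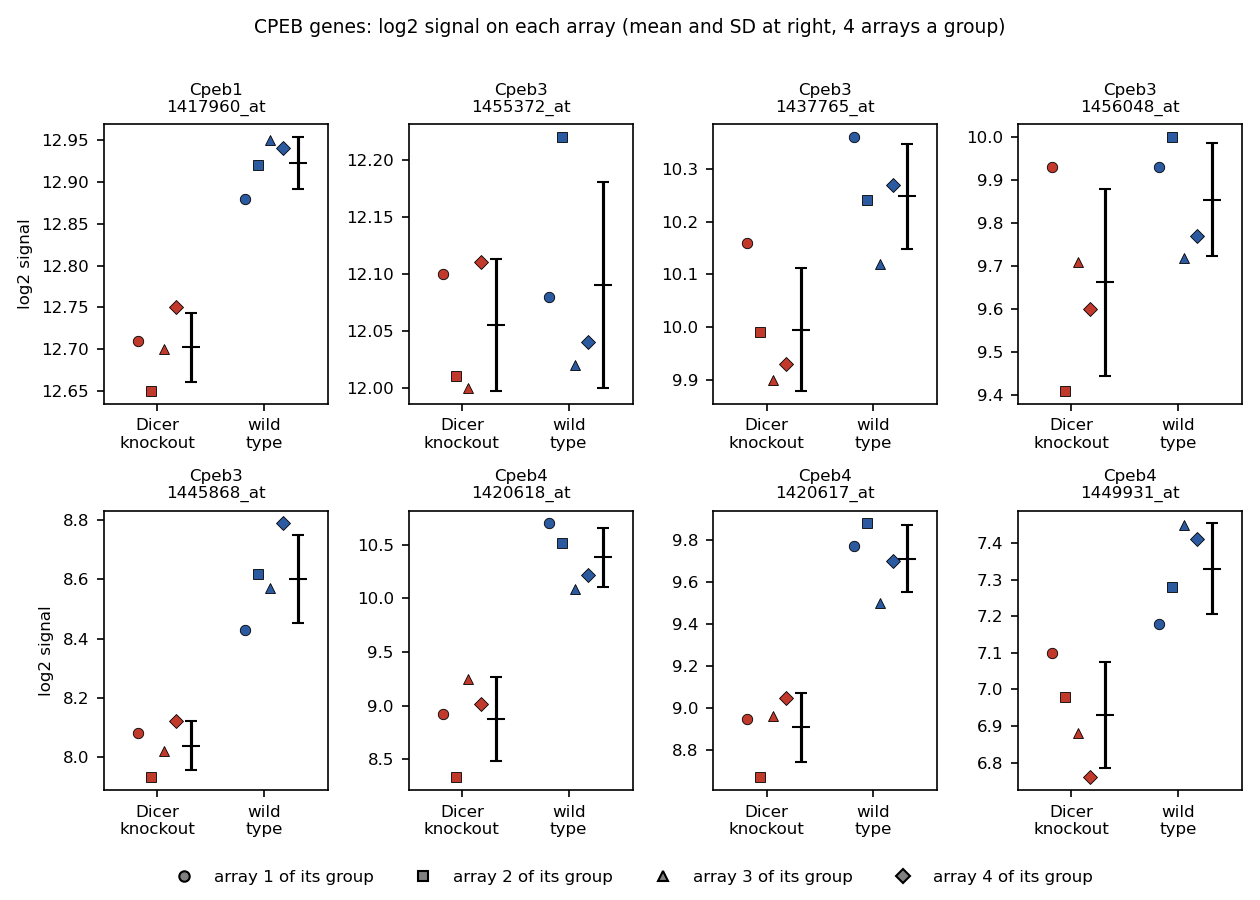
Log2 signal of the Cpeb1, Cpeb3 and Cpeb4 probe sets on each array, Dicer knockout left and wild type right, with marker shapes for the array number and mean ± SD (4 arrays) beside the points; each panel has its own axis range. The groups are separate in all Cpeb4 panels, in Cpeb1 and in Cpeb3 1445868_at, and overlap in the other Cpeb3 panels.

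Eif4enif1, on chromosome 11, encodes 4E-T, which binds eIF4E and in mouse oocytes takes part in ribonucleoprotein assembly around stored mRNA. It read 13.59, 13.57, 13.56 and 13.57 in the knockout and 13.58, 13.69, 13.60 and 13.79 in wild type. Knockout arrays spanned a narrow range that held wild-type array 1, with the other 3 wild-type arrays above it, and the difference of -0.09 (95% interval -0.25 to 0.07) did not pass (adjusted p = 0.442).

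Ybx2, on chromosome 11, encodes MSY2, an abundant RNA-binding protein of mouse oocytes whose loss destabilises maternal mRNA. Its probe set read 11.94, 11.96, 11.79 and 11.85 in the knockout and 12.12, 11.82, 12.24 and 12.11 in wild type. Wild-type array 2 lay among the knockout arrays, so the groups overlapped. The difference was -0.19 (95% interval -0.41 to 0.03, adjusted p = 0.238).

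Dazl, on chromosome 17, is a germ-cell RNA-binding protein that in mouse oocytes promotes translation during maturation. One probe set (1419542_at) read 12.96, 12.54, 12.30 and 13.03 in the knockout and 12.85, 12.60, 12.90 and 12.58 in wild type. The other (1449502_at) read 12.81, 12.76, 12.31 and 12.88 in the knockout and 12.73, 12.63, 12.87 and 12.73 in wild type. Knockout array 3 was the lowest of the 8 arrays in both, and the groups overlapped. The differences were -0.02 (95% interval -0.39 to 0.35) and -0.05 (-0.33 to 0.23). Neither passed (adjusted p = 0.95 and 0.841).

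Pabpc1l, on chromosome 2, encodes the embryonic poly(A)-binding protein, without which female mice are infertile. It read 10.67, 10.39, 10.36 and 10.51 in the knockout and 10.94, 10.74, 10.73 and 10.72 in wild type. Every knockout array lay below every wild-type array, by a gap of 0.05. The difference of -0.30 ± 0.0917 (SE, n = 4 each) narrowly missed the threshold (adjusted p = 0.0517). Without wild-type array 1, which was the highest, it was -0.25 (adjusted p = 0.117), whereas it passed without knockout array 1 (-0.37, adjusted p = 0.0285), under median scaling (0.0484) and with the filter on dim probe sets (0.0397).

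**Figure D3:**
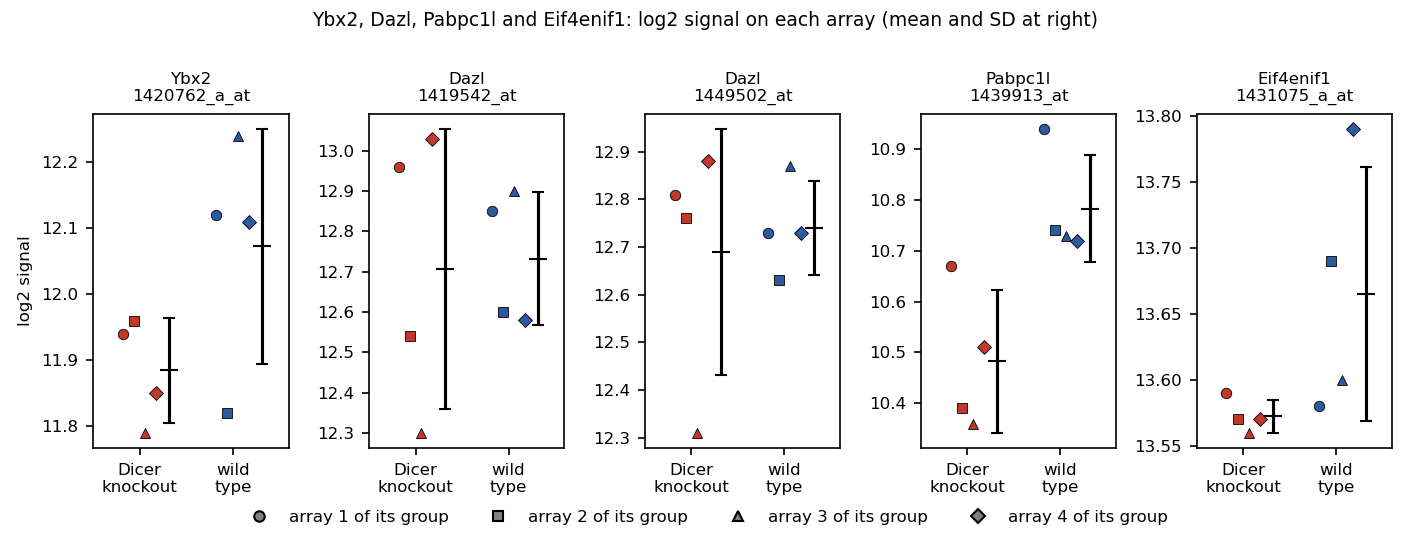
Log2 signal of Ybx2, Dazl, Pabpc1l and Eif4enif1 on each array, Dicer knockout left and wild type right, with mean ± SD (4 arrays) beside the points and an axis range per panel. The groups are separate in Pabpc1l, by 0.05, and overlap in the other panels.

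Pum2, on chromosome 12, is a Pumilio protein that binds mRNA 3′ ends and represses translation. Its brightest probe set (1418016_at) read 12.21, 12.10, 12.32 and 12.26 in the knockout and 11.99, 12.05, 11.89 and 11.90 in wild type, 1.20-fold higher (adjusted p = 0.0412). The gap between the groups was 0.05. This call ended in 7 of 8 fits that left out an array (adjusted p = 0.0504 to 0.103, and 0.0667 without wild-type array 1), and with each array shifted to a common median (0.0631). The fit without knockout array 2 kept it (adjusted p = 0.0342).

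A further Pum2 probe set (1418017_at) read 9.77, 9.68, 9.92 and 9.96 in the knockout and 10.45, 10.75, 10.42 and 10.61 in wild type, lower by a gap of 0.46. It fell by 0.72 on the log2 scale (SE 0.0999, adjusted p = 0.00111), a call that the same 15 alternatives kept, with -0.76 without wild-type array 1 (adjusted p = 0.00216). The signal of 1418016_at minus that of 1418017_at was 2.44, 2.42, 2.39 and 2.30 in the knockout and 1.54, 1.30, 1.47 and 1.29 in wild type, 2 separate ranges. These probe sets and 1418015_at share a sequence record in the platform annotation. The last of these read 9.52, 8.81, 9.82 and 8.94 in the knockout and 9.49, 9.74, 9.90 and 9.58 in wild type, with overlapping groups (adjusted p = 0.246), and 1441448_at was dim, with a mean of 3.64 in the knockout and 3.59 in wild type. The Pum2 probe sets thus passed in opposite directions.

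Zfp36l2, on chromosome 17, encodes an AU-rich element binding zinc finger protein whose loss in mouse oocytes impairs their maturation. Its brightest probe set (1437626_at) read 10.28, 8.56, 9.11 and 10.41 in the knockout and 8.73, 8.62, 8.11 and 8.85 in wild type. Knockout arrays 1 and 4 were high, while array 2 lay below 3 of the 4 wild-type arrays. The mean was 2.02-fold that of wild type, with an SD of 0.903 in the knockout and 0.321 in wild type, and it did not pass (adjusted p = 0.112). It passed without knockout array 2 (log2 difference 1.36, adjusted p = 0.0204). The remaining probe sets differed by 0.06 (1439054_at, adjusted p = 0.609) and 0.18 (1451034_at, adjusted p = 0.213). In 1439054_at, knockout arrays 1 and 4 read 7.44 and 7.52, beside 7.50 and 7.48 on knockout arrays 2 and 3. In 1451034_at, knockout arrays 1 and 4 read 5.85 and 5.96, the highest of the 8 arrays. Knockout arrays 2 and 3 read 5.83 and 5.79 there.

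**Figure D4:**
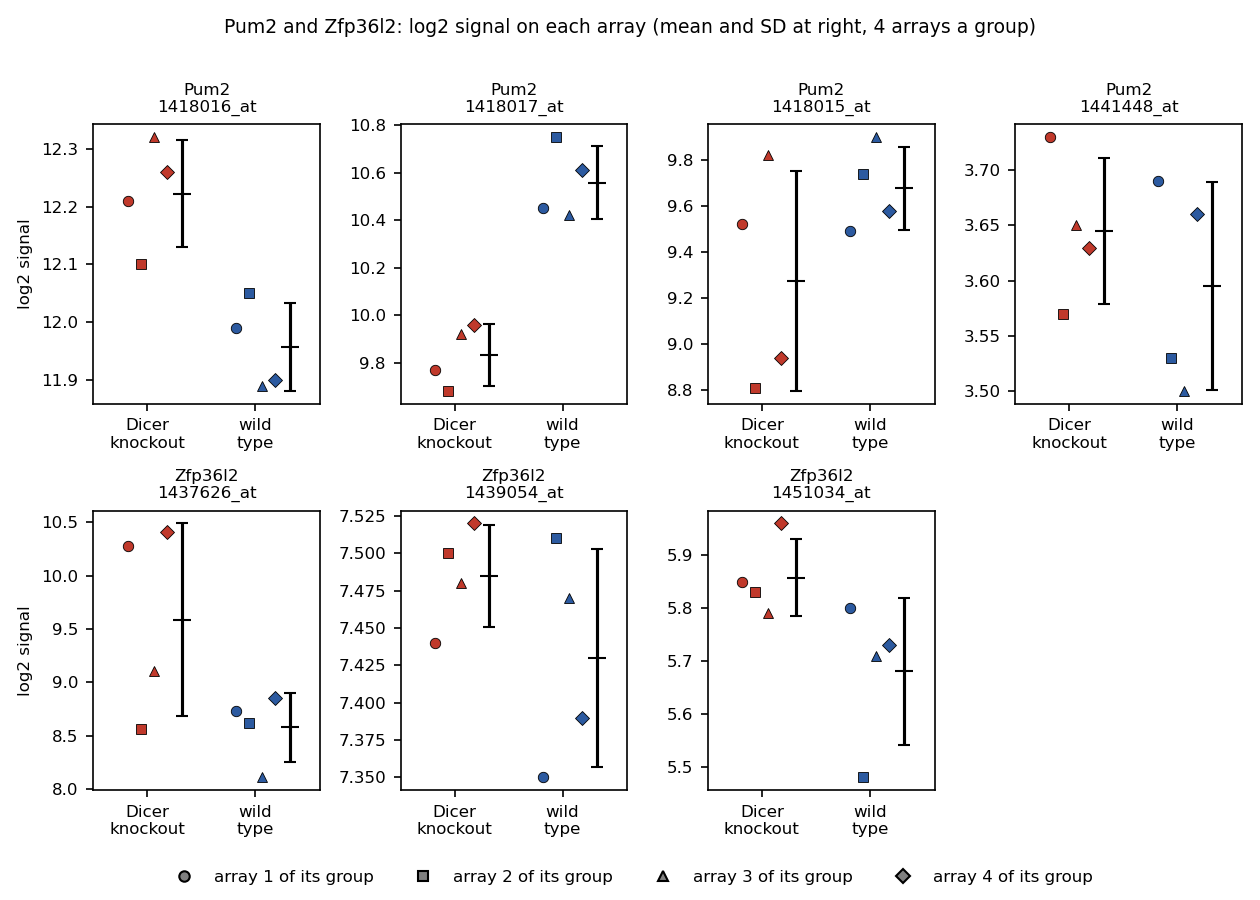
Log2 signal of the Pum2 and Zfp36l2 probe sets on each array, Dicer knockout left and wild type right, with mean ± SD (4 arrays) beside the points and an axis range per panel. In Pum2 the groups are separate with the knockout above in 1418016_at and below in 1418017_at; in Zfp36l2 1437626_at the knockout arrays range from 8.56 to 10.41.

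**Figure D5:**
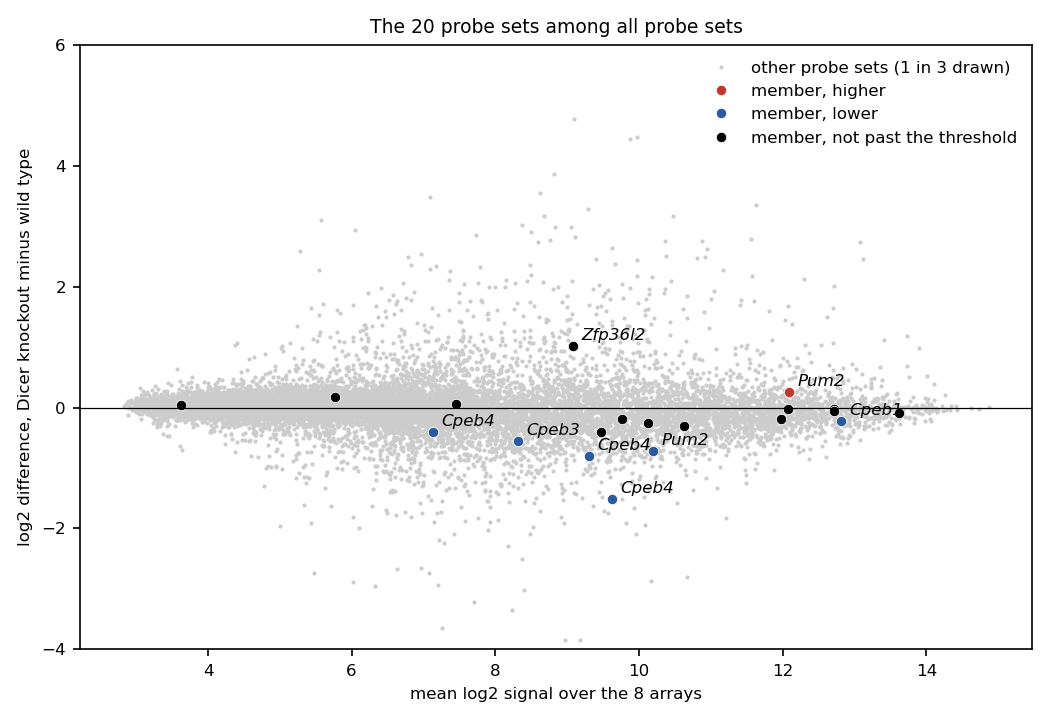
Log2 difference, Dicer knockout minus wild type, against the mean log2 signal over 8 arrays. Shown are 1 in 3 of the probe sets (grey) and the 20 probe sets of the 9 genes (coloured by call). The grey points, called other probe sets in the key, include some of the 20. Cpeb4 1420618_at, at -1.51, lies near the lower edge of the grey cloud, and most of the 20 lie inside it.

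Of 26 further genes of cytoplasmic polyadenylation, 4 were higher, 5 lower and 17 did not pass, where 8.18% of all genes were higher and 12.8% lower. The list median was -0.12 and the median over all genes was 0. Pabpn1l, the oocyte relative of the nuclear poly(A)-binding protein, read 11.70, 12.00, 11.65 and 12.09 in the knockout and 12.96, 12.95, 13.00 and 13.11 in wild type. It fell by 1.14 on the log2 scale (SE 0.108, adjusted p = 0.000139), with a gap of 0.86 between the groups. Pabpn1, the nuclear form, fell by 0.30 (adjusted p = 0.012) in its brightest probe set and in 1 more of its 4. Cstf2, a subunit of the cleavage stimulation factor, rose 1.43-fold (adjusted p = 0.0092). An increase of 1.22-fold was found for Parn (adjusted p = 0.016), which shortens poly(A) tails. Named after their values were seen, the poly(A) polymerases Papola and Papolg fell by 0.47 and 0.35, Cstf2t fell by 0.52, and Pabpc1 and Tob1 rose 1.63-fold and 1.58-fold. Another Papola probe set passed in the opposite direction, Parn, Papolg, Pabpc1 and Tob1 passed in 1 of 2 probe sets, and Cstf2 in 2 of 3. Without wild-type array 1 the list had 4 higher and 3 lower, with Papola (adjusted p = 0.05) and Cstf2t no longer past, and over all single arrays left out 2 to 4 higher and 3 to 5 lower. Calls that ended in some of these fits were those of Papola (up to 0.0528), Cstf2t (up to 0.0769), Pabpc1 (up to 0.0648) and Tob1 (up to 0.0917).

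Of 31 other storage and RNA-binding proteins, 3 were higher, 5 lower and 23 did not pass, with a median of -0.06. These counts are near the shares over all genes (8.18% higher and 12.8% lower). Zfp36l1, the relative of Zfp36l2, fell by 0.49 (adjusted p = 0.002) in 1 of 2 probe sets. Zar1, a maternal-effect factor that binds stored mRNA in mouse oocytes, read 13.45, 13.46, 13.38 and 13.40 in the knockout and 13.75, 13.66, 13.82 and 13.85 in wild type, a fall of 0.35 (adjusted p = 0.00839). Ddx6, a helicase of storage and decay granules, rose 1.69-fold (adjusted p = 0.00556) and in 3 of its 4 probe sets, and Stau2, a double-stranded RNA-binding transport protein, rose 1.29-fold (adjusted p = 0.00493) in 2 of 3. Nanos1, a partner of Pumilio proteins, Elavl2, Dppa3 and Ddx4 complete the count and were named after their values were seen. Nanos1 fell by 0.98, Elavl2 by 0.29 and Dppa3 by 0.30, and Ddx4 rose 1.86-fold with overlapping groups. Nanos1 passed in 1 of 2 probe sets and Elavl2 in 3 of 5. Without wild-type array 1 the list had 4 higher and 4 lower, and over all single arrays left out 2 to 4 higher and 4 to 6 lower. Calls of Ddx4 (adjusted p up to 0.0892), Dppa3 (up to 0.0614, and 0.056 without wild-type array 1) and Elavl2 (up to 0.0548) ended in some of these fits.

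A further list held eIF4 translation factors, their binding proteins and Tacc3. Of its 12 measured genes, 1 was higher, 2 lower and 9 did not pass, beside 8.18% higher and 12.8% lower over all genes. Eif4e3 read 13.29, 13.35, 13.36 and 13.32 in the knockout and 13.65, 13.70, 13.65 and 13.78 in wild type, a fall of 0.36 (adjusted p = 0.00464) seen in both of its probe sets. Eif4g3, a scaffold of the cap complex needed for meiosis in male mice, fell by 0.44 (adjusted p = 0.00359) in 2 of 4 probe sets. Eif4e, the cap-binding protein that 4E-T holds, rose 1.16-fold (adjusted p = 0.0469) in 1 of 4 probe sets, and the call ended in all 8 fits that left out an array (adjusted p = 0.058 to 0.106, and 0.0994 without wild-type array 1), under median scaling (0.0696), with robust variances (0.0529) and with array weights (0.0528).

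Of 28 mRNAs known or reported as controlled by CPEB, DAZL or MSY2 proteins, 4 were higher, 2 lower and 22 did not pass, beside 8.18% higher and 12.8% lower over all genes. Mos, the kinase whose mRNA is the classic case of CPE-driven polyadenylation, fell by 0.36 (adjusted p = 0.00781), and Orc6, of the origin recognition complex, fell by 0.31 (adjusted p = 0.018). Sycp1, a synaptonemal complex protein whose mRNA binds CPEB1 in mouse germ cells, rose 1.91-fold (adjusted p = 0.000604). Dcp2, the decapping enzyme that accumulates during maturation, rose 5.52-fold in 1 of 2 probe sets (adjusted p = 0.000532). Tex19.1 (1.40-fold) and Wee1 (1.59-fold) complete the rises and were named after their values were seen. Wee1 passed in 1 of 2 probe sets. Its call ended in 5 of 8 fits that left out an array (adjusted p = 0.0528 to 0.0629), and that of Orc6 ended without wild-type array 2 (adjusted p = 0.0527).

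Markers of the tissue were checked on the same arrays. Over all genes 8.18% were higher and 12.8% lower. The 17 measured oocyte markers averaged 13.23 to 13.26 log2 signal on knockout arrays and 13.26 to 13.38 on wild-type arrays, with 1 higher (Ddx4) and 6 lower, Mos and Zar1 among them (4 lower without wild-type array 1). Of 21 measured cumulus and granulosa cell markers, 10 were lower, Nr5a2 (by 0.44) and Greb1 (by 0.68) with the lowest p, in 1 and 2 of their 4 probe sets, and the other 11 did not pass. Without wild-type array 1, 6 of these markers were lower, and over all single arrays left out 5 to 10. The summed linear signal of the cumulus and granulosa cell markers was 6854 to 9045 units in the knockout and 10530 to 16324 units in wild type, so less somatic cell signal went with the knockout arrays. Cyp11a1, named after its values were seen, read 7.65, 6.53, 7.13 and 8.30 in the knockout and 9.23, 9.10, 8.53 and 9.02 in wild type, and another of its 3 probe sets passed in the opposite direction. The part of these cells in the lower signals of Cpeb4, Cpeb1, Cpeb3 and Pum2 was not tested.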

How the data were processed

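The deposited table holds log2 signals per probe set from 8 Affymetrix mouse genome 430 version 2 arrays, 1 per mouse. The submitters' processing notes name Partek and RMA, which removes background, brings arrays to one distribution and combines the probes of a set; their versions are not given in the sources used here. It compresses dim signals, so their fold changes are understated. Per the labels' protocols, RNA was amplified linearly in 2 rounds, which favours 3′ ends. No detection calls were used, and precision is limited by having 4 arrays a group.

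Groups follow the genotype label. Knockout minus wild type was fitted without covariates by lmFit and eBayes of limma 3.58.1 (R 4.3.3) on all 45037 probe sets apart from 64 controls, with Benjamini-Hochberg adjustment over all of them, and adjusted p below 0.05 counted as passing. "Rose", "fell", "higher" and "lower" in counts refer to this test. It was tested on simulated data. Gene names of probe sets are those of the platform annotation. A gene outside the 9 stands by its brightest probe set with 1 symbol, and its level is not compared with that of other genes. In each further list the 2 genes with the lowest p in each direction are named. The members and lists were chosen with earlier results of these data known. Alternatives were 2 scalings, a filter on dim probe sets, other variance models, weights for arrays, a block by the opening number of the title code, other ways to represent a gene, and leaving out each array. List counts under these, and fixed blocks, were added after seeing the data. Nothing in the labels says that the mice came from separate litters.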

Additional observations from a re-analysis of the deposited data

Results flagged for a closer look

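In each group of 4 arrays, a single array far from the other 3 was looked for in 90 sets of values (the 20 probe sets, Cpeb2, Dicer1, the named list genes and the quality measures) by its gap relative to the whole range. It was found in 7, where chance gives about 1 in 20. Among the 9 genes this was Pabpc1l, with 10.94 on wild-type array 1 against 10.72 to 10.74 on the other wild-type arrays. Cstf2 also read high on that array (10.38 against 9.93 to 10). Knockout array 4 was low in the dimmer Dicer1 probe set (12.11 against 12.36 to 12.38) and in Zfp36l1 (7.26 against 7.37 to 7.38). Knockout array 2 was low in Ddx4 (10.30 against 10.96 to 11.03). Wild-type array 3 was low in Parn (11.47 against 11.54 to 11.55) and in Sycp1 (7.22 against 7.5 to 7.55).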

How the results depend on the processing

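Both brighter Cpeb4 probe sets, Cpeb3 1445868_at and Pum2 1418017_at kept direction and call under 15 alternatives (fixed blocks apart), with log2 differences of -1.63 to -1.32, -0.88 to -0.73, -0.62 to -0.50 and -0.77 to -0.66. Leaving out single arrays gave 0 to 2 of the 20 probe sets higher and 4 to 7 lower. Over all 45037 probe sets the same fits gave 2306 to 2851 higher and 3150 to 3778 lower, beside 3072 and 4192 with all arrays. Of the 9 genes, 0 to 2 were higher and 1 to 2 lower in these fits, which fewer arrays enter. By probe set, counts of those higher were 0 under median scaling, beside 2645 over all probe sets. By gene, median scaling gave 0 higher, quantile scaling gave 1 lower, and averaging all probe sets of a gene gave 0 higher and 4 lower (Cpeb1, Cpeb3, Cpeb4 and Pabpc1l). The cause of these moves was not tested. Counts over all genes were not made for these alternatives, so the gene counts have no share beside them. Signs turned in probe sets that did not pass: Cpeb3 1455372_at was 0 under quantile scaling and -0.06 to 0.01 without single arrays. Dazl 1419542_at was 0 under quantile scaling, 0.05 with array weights and -0.13 to 0.11 without single arrays, and Dazl 1449502_at was -0.11 to 0.08 without single arrays. With a random replicate block by the opening number of the title code, no call among the 20 probe sets changed (6 lower, 1 higher, consensus correlation -0.0778). Over all probe sets the random block gave 4153 lower and 3028 higher. With that number as fixed replicate blocks, an alternative chosen after seeing the data, 4 arrays carry the comparison and 2 residual degrees of freedom remain. It gave 969 probe sets higher and 1222 lower (3072 and 4192 without it), 3 of the 20 lower and 0 higher, and 1 of the 9 genes lower and 0 higher. Both brighter Cpeb4 probe sets and Pum2 1418017_at passed, and Cpeb3 1445868_at did not (adjusted p = 0.105). In limma, 9 of the 20 had an unadjusted p below 0.05 there, beside 8583 of all 45037 probe sets. Signs turned in Dazl 1419542_at (0.06), Dazl 1449502_at (0.14) and Pum2 1441448_at (-0.01). The labels do not say that the number marks a shared litter or batch.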
